A study of Mus musculus with 4 samples.

Results

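Distal chromatin regions that were open in IL-10+ Treg cells of the mouse cecum were followed into tumor Treg cells and into every other T cell population of both tissues. The genome was divided into 500-bp regions, and a region was selected when it lay on chromosomes 1-19 and more than 1 kb from either end of every protein-coding gene. It also had to hold 30 or more fragments of cecum IL-10+ Treg cells and at least 3 times the level of cecum IL-10- Treg cells. The level was counted in fragments per 1000000 fragments of the cell population (FPM), with 0.5 FPM added to both sides of every ratio. The rule chose 888 regions, 4.00% of the 22184 distal regions with 30 or more cecum IL-10+ Treg fragments. Because the cecum levels of both Treg populations chose the regions, these levels are given as a description, and the tumor library supplies the measurement that the choice did not use.

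T cells had been sorted from orthotopic colorectal tumors and from the adjacent tumor-free cecum of mice, 4 weeks after transplantation of AKP organoids into the cecal wall. AKP organoids are mouse intestinal organoids with engineered cancer driver changes that include loss of Apc and Trp53, so both tissues came from tumor-bearing mice and no tumor-free mouse was part of the comparison. The genotype, strain and age of the mice and the number pooled per library are not given in the sources used here. Nuclei went through a paired assay that reads RNA and open chromatin (ATAC-seq, in which a transposase cuts accessible DNA) from the same cell, with 1 ATAC library per tissue. Every cell carried 1 of 17 labels that the authors had drawn from clusters of its RNA, so the labels IL10+ Treg and IL10- Treg rest on expression and not on the accessibility measured here. The labels held 996 IL-10+ and 424 IL-10- Treg cells in the cecum library, with 5709704 and 3000774 fragments. The tumor library held 387 IL-10+ and 737 IL-10- Treg cells, with 2727884 and 5805456 fragments. With 1 library per tissue there was no test and no p-value for any comparison, and all intervals below are 95% intervals. Those of single ratios cover the counting error of fragments only. Those of shares and medians are taken over regions or cells as if these were independent draws, which touching regions are not, and none of them covers the spread between mice.

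Treg cells are CD4 T cells that depend on the transcription factor Foxp3 and restrain other immune cells. In the intestine, a population of peripherally induced Treg cells shares transcription factors such as c-Maf with type 17 T cells and makes the cytokine IL-10. Tissue Treg cells of the other kind tend to express Helios, the product of Ikzf2, and the IL-33 receptor encoded by Il1rl1. Enhancers are stretches of DNA away from gene starts that bind transcription factors and raise the transcription of genes on the same chromosome. They are accessible mainly in the cell types that use them, and they often differ between closely related T cells more than promoters do. The nearest gene is only a name for a place here, since an enhancer can act on a gene further away.

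Some of the regions overlapped the start of a transcript away from the ends of coding genes, and there RefSeq promoter sequence (GRCm38.p6, the same assembly as the mm10 build of the files) was at hand. Such windows, which run from 250 bases before to 50 bases after a start, overlapped 26 of the 888 regions; 21 of the 25 windows belonged to long noncoding RNA genes and 4 to coding genes. Shown are the internal start of Il1r1 and 3 noncoding starts beside Ctla4, since those genes return below, and the start within Gcnt2. The Gm20750 start lay in the region with the most cecum fragments among the 26, and Gm39056 is set beside them as one whose tumor ratio lay below 0. Only bases that lay upstream of the start and inside the region are printed, 5′ to 3′ on the strand of the gene. Capitals mark matches on either strand to AGGTCA (ROR), TGCTGA (MAF), TGTGGT (RUNX), AAAGGTCA (NR4A, which contains the ROR letters) and TTCNNNGAA (STAT), and a sequence with no capitals held none of the motifs searched.
Il1r1, chr1:40266501-40266585, plus strand: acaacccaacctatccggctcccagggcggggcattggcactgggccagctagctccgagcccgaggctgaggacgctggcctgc
Gm38137, chr1:60863001-60863101, plus strand: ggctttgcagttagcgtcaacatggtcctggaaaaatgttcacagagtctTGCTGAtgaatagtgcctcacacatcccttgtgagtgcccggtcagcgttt
Gm34649, chr1:60921001-60921231, plus strand: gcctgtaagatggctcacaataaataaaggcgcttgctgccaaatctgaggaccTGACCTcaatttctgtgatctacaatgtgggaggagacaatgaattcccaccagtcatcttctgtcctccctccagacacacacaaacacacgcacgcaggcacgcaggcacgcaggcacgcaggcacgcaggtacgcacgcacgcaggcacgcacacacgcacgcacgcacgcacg
Gm39650, chr1:60886839-60887000, plus strand: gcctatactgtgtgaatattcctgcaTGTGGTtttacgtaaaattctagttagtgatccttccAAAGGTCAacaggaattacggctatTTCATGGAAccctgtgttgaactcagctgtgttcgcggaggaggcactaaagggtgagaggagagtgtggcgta
Gcnt2, chr13:40917501-40917633, plus strand: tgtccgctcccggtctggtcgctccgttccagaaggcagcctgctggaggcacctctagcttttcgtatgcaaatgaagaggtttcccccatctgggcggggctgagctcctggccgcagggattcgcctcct
Gm20750, chr3:52927667-52927916, minus strand: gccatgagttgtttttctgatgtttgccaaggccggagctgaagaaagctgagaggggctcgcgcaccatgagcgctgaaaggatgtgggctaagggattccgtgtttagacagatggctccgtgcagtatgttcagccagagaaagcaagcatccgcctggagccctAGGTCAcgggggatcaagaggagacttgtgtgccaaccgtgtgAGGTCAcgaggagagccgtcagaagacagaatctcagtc
Gm39056, chr7:99500214-99500463, plus strand: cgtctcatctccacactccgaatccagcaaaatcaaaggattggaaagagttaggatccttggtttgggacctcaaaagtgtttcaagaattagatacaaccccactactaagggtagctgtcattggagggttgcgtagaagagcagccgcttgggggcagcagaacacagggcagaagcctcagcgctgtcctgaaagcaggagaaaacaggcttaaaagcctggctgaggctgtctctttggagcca
The Il1r1 stretch lies inside the gene and within a region that held 34 IL-10+ and 1 IL-10- Treg fragments in cecum and 20 and 3 in tumor. The Gm38137 region held 63 and 6 fragments in cecum and 25 and 10 in tumor, and the first Gm34649 region 58 and 5 in cecum and 27 and 8 in tumor. The Gm39650 region held 93 and 14 in cecum and 34 and 47 in tumor. After scaling to depth, all 4 were higher in tumor IL-10+ than in tumor IL-10- Treg cells, with the log2 ratio smallest at Gm39650 (0.59) and between 2.12 and 2.95 at the others. The Gcnt2 region held 64 and 10 fragments in cecum and 30 and 16 in tumor, the Gm20750 region 194 and 20 in cecum and 67 and 49 in tumor, and the Gm39056 region 31 and 3 in cecum and 11 and 26 in tumor. The first pair of these regions had tumor log2 ratios of 1.82 and 1.49, and the last one of -0.14.

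Promoter windows of the nearest genes could be searched for more motifs, but they are not the regions themselves. Of the 523 nearest genes, 406 had a window in the table, with 554 windows. AGGTCA was present on either strand in 15.2% of these windows and in 14.7% of the 20085 windows of all protein-coding genes on these chromosomes. TGCTGA was present in 18.95% and 17.9%, TGTGGT in 12.8% and 14.8%, the AP-1 motif TGANTCA in 7.04% and 7.06%, and the forkhead motif TGTTTAC in 4.15% and 3.04%. The other motifs searched were the GATA factor motif, written AGATAA (7.76% and 9.57%), the ETS motif CCGGAA (17.9% and 19.1%), the STAT motif TTCNNNGAA (8.12% and 7.78%), the IRF motif GAAANNGAA (7.58% and 8.09%), the TCF motif CTTTGAA (4.33% and 4.45%), the CREB motif TGACGTCA (2.71% and 2.30%), the T-box motif AGGTGTGA (1.44% and 1.17%), the NR4A motif AAAGGTCA (0.72% and 1.29%) and an extended ROR motif AANTAGGTC (0% and 0.45%). The differences between these shares were not tested.

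The libraries were checked before the regions were compared. They held 66466111 (cecum) and 96747563 (tumor) fragments, of which 66.2% and 64.3% came from labelled cells, and labelled cells had a median of 4374 and 5846 fragments. Among labelled barcodes, 84 were found in both libraries, 1.17% of cecum and 0.992% of tumor cells. The sources used here do not say whether doublets had been taken out, and no doublets were called or removed for these values. Accessibility over Foxp3 with 5 kb on both sides was higher in the IL-10+ Treg label than in any other label of both libraries (102 FPM in cecum and 79.2 in tumor), beside 97.3 and 76.0 in the IL-10- label. Il10 measured 153 against 79.3 FPM in cecum and 146 against 55.1 in tumor. Ikzf2 went the other way, with 205 against 474 and 235 against 436. Over Cd8a the Treg labels held between 4.0 and 6.7 FPM, where PD1+ CD8 cells held 95.5 and 90.0. The summed level over 6 B cell genes (149 and 151 FPM in cecum, 155 and 153 in tumor) and 6 myeloid genes (169 and 171, 168 and 178) was alike in IL-10+ and IL-10- Treg cells, with no gene of either list at 0 in IL-10+ cells. Of the 6 myeloid genes, 1 was higher in the IL-10+ label in each library, Cd68 (114 against 96.3 FPM in cecum, 100 against 82.2 in tumor), and the others were lower. The sum over 10 epithelial genes was lower in the IL-10+ label of both libraries (102 against 136, and 101 against 153), with 1 gene at 0 in cecum IL-10+ cells. Single genes weighed heavily in these sums. In cecum IL-10+ cells Cd79a held 97.9 of the 149 FPM, Cd68 114 of the 169 and Cdh1 50.1 of the 102. Cdh1 was highest in Cytotoxic gdT cells of the cecum (135 FPM) and Innate-like T#1 cells of the tumor (139). The sums therefore cannot show how much DNA of other cell types the Treg labels held. No region lay nearest to any gene of these 3 lists, of which 2 epithelial genes alone had a distal region with 30 or more fragments.

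The selected regions held a median of 45 fragments of cecum IL-10+ Treg cells and 4 of cecum IL-10- Treg cells. The median ratio was 4.07-fold, the smallest 3.003-fold (Nup214 and Krt222, each with 40 and 6 fragments) and the highest log2 ratio 5.14. No IL-10- Treg fragment was counted in 33 regions. Just outside the limit on the ratio lay regions nearest to Arhgef10 and Ramp3, both with 97 and 16 fragments, and Cass4, with 57 and 9. At the limit on depth, 55 regions held exactly 30 fragments, among them one in Il1r1 and one in Il1rl1, and 44 regions past the ratio had 29 and stayed out, among them one beside Il17a (29 and 4) and one beside Ctla4 (29 and 4). The tumor log2 ratios of the 3 regions just inside the ratio limit were 0.34, -0.19 and 0.77, and those of the 3 just outside were 0.83, 0.24 and 1.87, so neighbouring regions on either side of it had tumor values that overlapped.

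In the tumor, most of these regions were again more open in IL-10+ than in IL-10- Treg cells. The median level was 6.97 FPM in tumor IL-10+ and 2.41 FPM in tumor IL-10- Treg cells, beside 7.88 and 1.33 FPM in the cecum. Of the 888 regions, 589 (66.3%, interval 63.1 to 69.4) were 2-fold or more higher in tumor IL-10+ Treg cells, where 7.74% of all 22184 distal regions were. None was 2-fold or more lower, where 2.14% of all distal regions were. The median log2 ratio was 1.36 (1.28 to 1.44), with quartiles of 0.82 and 1.99 and a range from -0.98 to 4.59, and the median over all distal regions was 0.12. The direction was the same as in the cecum in 852 regions and opposite in 36. Among 752 regions with 20 or more tumor fragments over both Treg labels, 63.0% were 2-fold or more higher. No tumor IL-10- Treg fragment was found in 8 regions, which held 14 to 21 tumor IL-10+ Treg fragments; with 3 fragments standing in for 0, the median over all regions was again 1.36. The mirrored rule chose 604 (5.53%) of the 10920 distal regions with 30 or more cecum IL-10- Treg fragments. These gave a tumor median of -1.59, and 458 of them (75.8%) were 2-fold or more lower in tumor IL-10+ Treg cells. The share over those 10920 regions was not taken, so this count has no base of its own beside it.

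**Figure D1:**
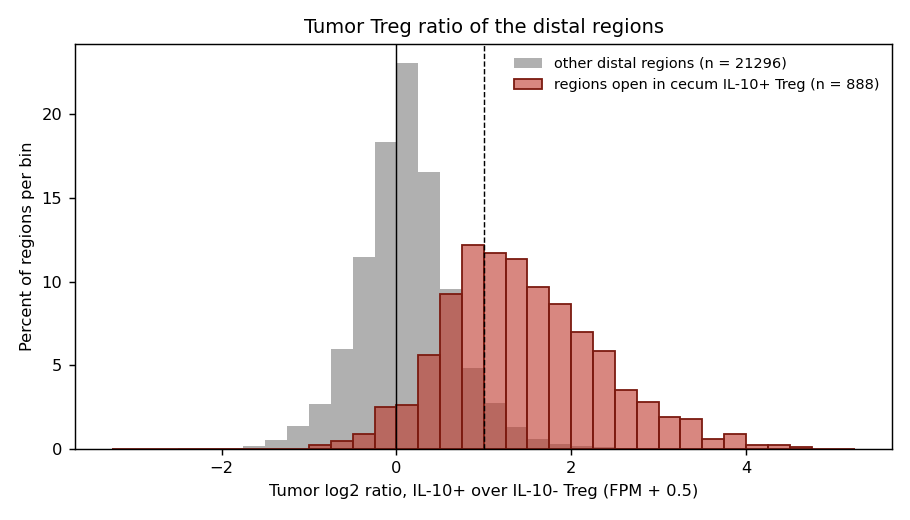
Tumor log2 ratio, IL-10+ against IL-10- Treg cells (x axis, FPM + 0.5) as the percent of regions in each bin (y axis) for the 888 selected regions and the 21296 other distal regions with 30 or more cecum IL-10+ Treg fragments; the solid line marks 0 and the dashed line 2-fold. The selected regions center on 1.36, to the right of the other regions, and 36 of them lie below 0.

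Classes of regions with a higher cecum ratio had a higher median tumor ratio. The 430 regions with a cecum ratio from 3 to under 4 had a tumor median log2 ratio of 1.11 (1.02 to 1.21), and 56.0% of them were 2-fold or more higher. For the 284 regions from 4 to under 6 the median was 1.45 (1.30 to 1.58) and the share 69.4%, and for the 174 regions at 6 or more it was 2.18 (1.93 to 2.35) and 86.8%. The tumor IL-10+ Treg level hardly moved over these classes (7.33, 6.60 and 6.97 FPM), whereas the tumor IL-10- Treg level was 3.27, 2.07 and 1.21 FPM. The median tumor log2 ratio was also taken by where a region lay. It was 1.39 (1.28 to 1.46) for the 488 regions inside a gene span and 1.33 (1.21 to 1.49) for the 400 outside every span. It was 1.27 (1.06 to 1.46) for 244 regions under 10 kb from a gene end and 1.37 (1.28 to 1.47) for 525 regions at 10 to 100 kb. For 119 regions over 100 kb away it was 1.41 (1.24 to 1.68). The shares that were 2-fold or more higher were 61.9%, 67.6% and 69.7% in these classes of distance. All of these intervals overlapped, and a difference by place was not tested.

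The selected regions lay further from gene ends than distal regions at large. Their median distance to the nearest gene end was 23.1 kb, beside 12.7 kb over all distal regions with 30 or more fragments, and 13.4% against 6.55% lay over 100 kb away. Inside a gene span lay 55.0% of them, against 60.9%. A touching region was also selected in 318 of 888 (35.8%), or in 19.4% of the 583 regions chosen when a fragment was counted by its middle. In the main count, a fragment with its ends in touching regions counted in both. Of all distal regions with 30 or more fragments, 68.7% touched another such region. That larger set has more possible neighbours, so these shares cannot be compared. Joining touching regions gave 718 stretches, of which 570 were 1 region long, 130 were 2 and 18 were 3 or more, with the longest at 2000 bp. By chromosome, the selected share ran from 1.98% on chromosome 16 and 2.43% on chromosome 2 to 5.70% on chromosome 4 and 5.85% on chromosome 1. None lay in a T cell receptor locus, where 9 (Tra), 15 (Trb) and 2 (Trg) distal regions had 30 or more fragments.

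Outside the Treg labels the regions were most open in the type 17 populations. In tumor Th17 cells, which are CD4 T cells that make IL-17, the median level was 4.70 FPM. In the cells labelled Rorgt gdT, the γδ T cells of type 17, it was 4.70 FPM as well, so that these labels came directly after IL-10+ Treg cells (6.97 FPM) among the 17. In the cecum, where the rule puts IL-10+ Treg cells (7.88 FPM) high, Th17 cells (5.74) and Rorgt gdT cells (4.16) were the next as well. The tumor PD1+ CD4 label followed with 3.74 FPM (its cecum counterpart holds 14 cells and was too shallow to place) and Tfh-like cells with 3.57. The lowest tumor medians were those of CCR7+ CD8 (1.13), CD8aa (1.16) and Innate-like T#1 cells (1.16), below the 1.78 FPM in unlabelled tumor barcodes of under 100 fragments, which served as a measure of free DNA. The order of the lower labels depends on the summary. By the level summed over the 888 regions IL-10+ Treg (7630 FPM), Rorgt gdT (6296), Th17 (5839) and PD1+ CD4 cells (4800) kept the first 4 places in the tumor, whereas Tfh-like cells (2093 fragments in all) came seventh, and IL-10- Treg (2772) and CCR7+ CD4 cells (2387) were the lowest. Every label was above the background by this sum (2196 FPM). In the cecum the median of that background was 1.94 FPM, above the 1.33 FPM of IL-10- Treg cells. Over all distal regions its median was 4.89 FPM in the tumor and 4.92 in the cecum. Every label, too, had a lower median over the selected regions than over all distal regions. In the tumor the latter was 9.53 FPM in IL-10+ Treg, 8.98 in Th17 and 8.94 in Rorgt gdT cells. In the cecum it was 9.63, 9.19 and 8.79 FPM in the same order.

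**Figure D2:**
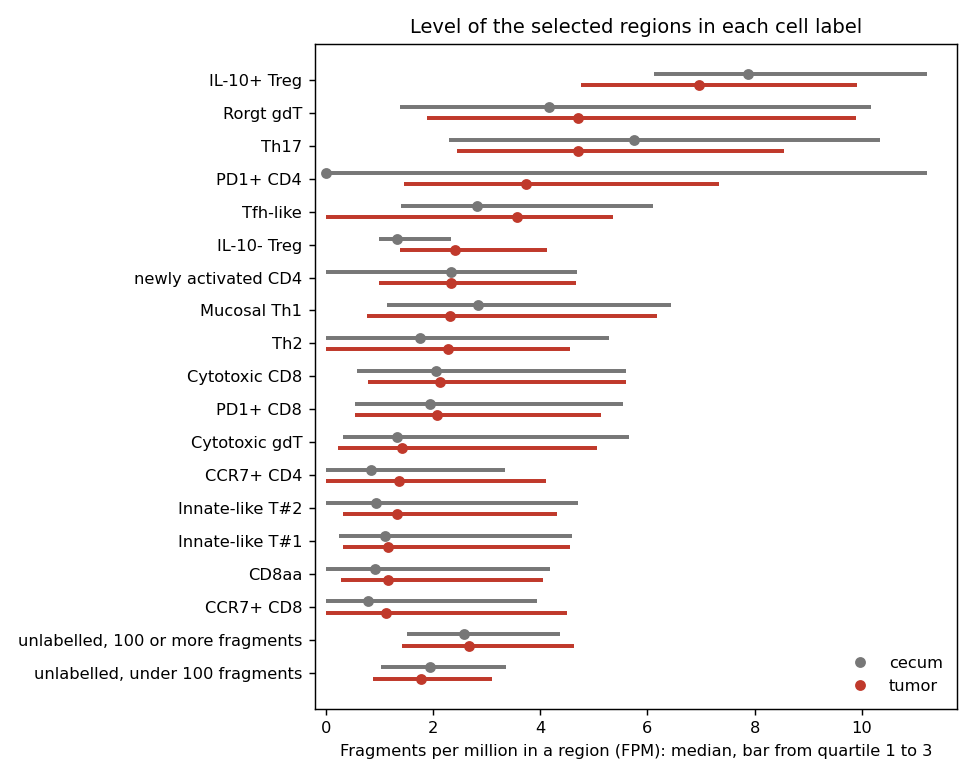
Level of the 888 regions in FPM (x axis) in each of 17 labels and in unlabelled barcodes (y axis), for the cecum and the tumor library; points are medians over regions and bars run from the lower to the upper quartile. IL-10+ Treg cells are highest in both libraries, followed by Rorgt gdT and Th17 cells, and the cecum PD1+ CD4 label rests on 14 cells.

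Set against tumor IL-10- Treg cells, the regions had a median log2 ratio of 0.76 in tumor Th17 and 0.73 in tumor Rorgt gdT cells, with 41.1% and 41.9% of regions 2-fold or more higher, where 6.44% and 7.44% of all distal regions were. In PD1+ CD4 cells the median was 0.45 and the share 32.0% (5.9% of all distal regions). In Mucosal Th1 cells, a label of CD4 T cells that make interferon-γ, it was 0.12 and 26.5% (7.29%), and in Tfh-like cells 0.04 and 25.5% (8.99%). Every remaining label outside Treg cells also had a raised share, from 14.4% (8.17%) in CCR7+ CD4 to 21.7% (6.49%) in Cytotoxic CD8 cells. Unlabelled tumor barcodes of under 100 fragments had 7.09% (0.789%). A raised share was thus not particular to the type 17 labels. These ratios share the tumor IL-10- Treg fragments with the ratio of the Treg labels and are therefore no independent support for it. Region by region, 65.5% of the 888 reached at least 0.5 of the tumor IL-10+ Treg level in Th17 cells, 61.9% in Rorgt gdT cells, 52.8% in PD1+ CD4 cells and 43.2% in Mucosal Th1 cells. In IL-10- Treg cells 33.7% did, which only restates the share of 2-fold regions given before. Over all 22184 distal regions these shares were 89.4%, 86.1%, 89.1%, 83.0% and 92.3%, so the selected regions were less often open to a like degree in any of these labels. Th17 or Rorgt gdT cells, with no Th1, PD1+ CD4, CD8 or cytotoxic label at that level, accounted for 165 regions (18.6%, against 2.54% of all distal regions), and the opposite pattern for 87 (9.80%, against 3.48%). Both kinds of label reached the level in 518 (58.3%, against 92.0%). In 79 regions (8.90%, against 1.05%) none of the 15 labels outside Treg cells reached it, and in 37 regions (4.17%, against 0.252%) the IL-10+ Treg level was more than 3 times that of every other label.

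Aligned on their centers, the joined stretches formed a peak in IL-10+ Treg, Th17 and Rorgt gdT cells of both libraries. In tumor IL-10+ Treg cells the central 200 bp held 2.75 fragment ends per 1000000 per stretch and 100-bp bin, 4.99 times the level of the outermost bins. In tumor Th17 and Rorgt gdT cells these values were 2.24 (4.53 times) and 2.39 (5.04 times). Tumor IL-10- Treg cells also had a peak, lower than the others, with 1.01 at the center and 2.66 times the outermost bins, beside 0.631 and 1.69 times in the cecum, where the regions had been chosen for a low value. Fragments in the regions were as short as those of other distal regions: 54.5% were under 150 bp in tumor IL-10+ Treg cells (53.8 to 55.2), against 54.1% over all distal regions with 30 or more fragments and 47.8% over all fragments. In tumor IL-10- Treg cells the share was 51.2% (50.4 to 52.0), below the 54.4% over the same distal regions.

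**Figure D3:**
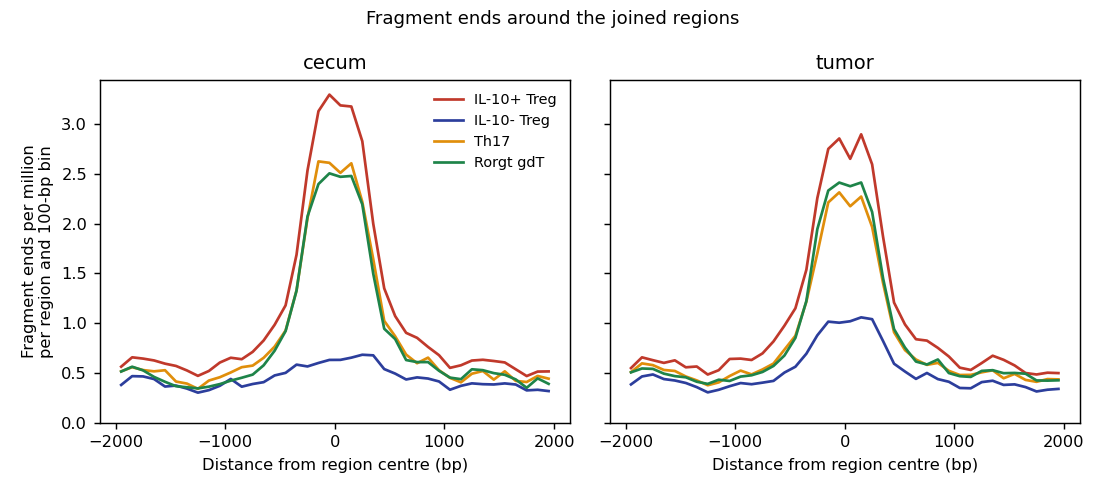
Fragment ends per 1000000 per stretch and 100-bp bin (y axis) by distance from the center of the 718 joined stretches (x axis, bp) in the cecum and tumor libraries for 4 labels. IL-10+ Treg, Th17 and Rorgt gdT cells peak at the center in both libraries; the IL-10- Treg line averages, over the central 200 bp, 0.631 in cecum and 1.01 in tumor.

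The signal was spread over the cells of the label and not carried by a few of them. When every cell was thinned to 2000 fragments and shallower cells were left out, 317 of 387 tumor IL-10+ Treg cells remained and held a median of 14 fragments in the regions, with quartiles of 11 and 19. The 612 tumor IL-10- Treg cells held a median of 5 (3 to 7), 246 Th17 cells 10 (7 to 13), 231 Rorgt gdT cells 11 (8.5 to 14) and 520 PD1+ CD4 cells 9 (7 to 11). Before thinning the regions took 0.69% of the fragments of tumor IL-10+ Treg cells, 0.26% of IL-10- Treg, 0.54% of Th17 and 0.58% of Rorgt gdT cells. At or above the IL-10+ Treg median stood 2 of 612 tumor IL-10- Treg cells (0.33%, 0.04 to 1.18), 24.8% of Th17 cells and 32.0% of Rorgt gdT cells. At or below the IL-10- Treg median stood 17 of the 317 tumor IL-10+ Treg cells (5.36%, 3.15 to 8.45).

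**Figure D4:**
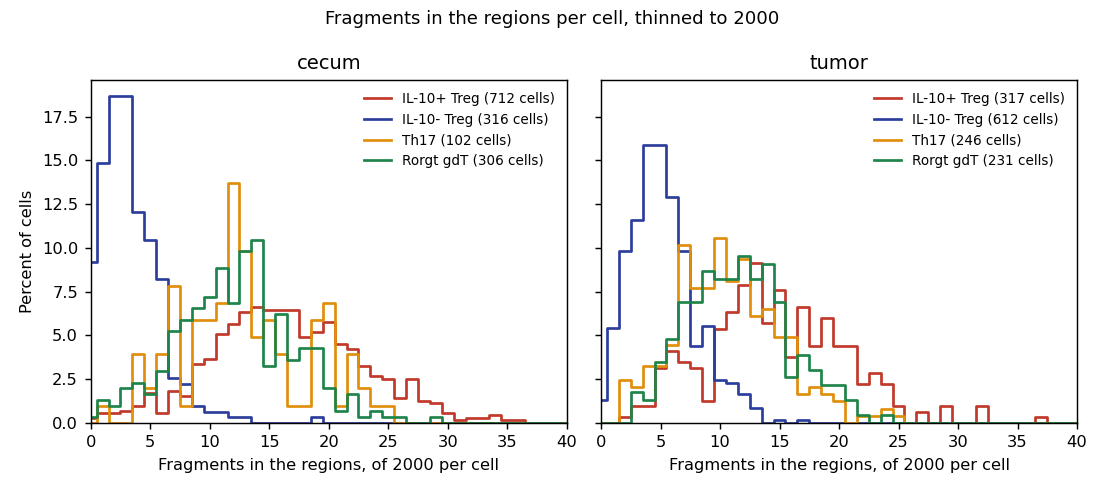
Number of fragments in the regions among 2000 fragments per cell (x axis) against the percent of cells (y axis) for 4 labels of the cecum and tumor libraries; cells with fewer than 2000 fragments are left out. Tumor IL-10+ Treg cells center on 14 and tumor IL-10- Treg cells on 5, with Th17 and Rorgt gdT cells between them at 10 and 11.

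Among joined stretches with 20 or more tumor fragments, the 8 highest in both libraries lay next to or in Wwox, Iyd, Ccl20, Daw1, Msi2, Scfd2 and Gcnt2. The highest of these by the tumor ratio was chr8:115116501-115118000 within the span of Wwox, which encodes an oxidoreductase. It held 238 IL-10+ and 9 IL-10- Treg fragments in cecum, and 112 and 5 in tumor, which gave a tumor log2 ratio of 4.93 (from counts, 4.31 to 7.23). In the tumor its level was 41.1 FPM in IL-10+ Treg, 5.13 in Th17 and 0.470 in Rorgt gdT cells, so the type 17 labels were far below IL-10+ Treg cells there. In the cecum its level was 41.7 FPM in IL-10+ Treg, 14.9 in Th17 (13 fragments) and 0.925 in Rorgt gdT cells. The stretch chr10:3516001-3517000, 23.3 kb from Iyd, behaved otherwise. It held 212 and 8 Treg fragments in cecum and 87 and 8 in tumor (log2 ratio 4.11), but its tumor level of 31.9 FPM in IL-10+ Treg cells was matched by 29.9 FPM in Th17 cells and 47.0 FPM in Rorgt gdT cells.

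Ccl20 encodes the ligand of the chemokine receptor CCR6, and every one of the 8 distal regions next to it with 30 or more cecum IL-10+ Treg fragments was selected. All 8 were 2-fold or more higher in tumor IL-10+ than IL-10- Treg cells, and together they held 523 and 5 Treg fragments in cecum and 179 and 13 in tumor. The strongest stretch, chr1:83137501-83139000, held 227 and 4 in cecum and 85 and 8 in tumor (log2 ratio 4.08, from counts 3.46 to 5.76). Its tumor level was 31.2 FPM in IL-10+ Treg, 35.9 in Th17, 7.998 in Rorgt gdT and 0.772 in Mucosal Th1 cells. At chr1:83091001-83092000, no IL-10- Treg fragment was found in either library, against 65 IL-10+ Treg fragments in cecum and 21 in tumor, a tumor log2 ratio of at least 3.90 when 3 fragments stand in for 0 and no FPM is added (the exact interval of the counts themselves begins at 3.47). Both stretches were thus shared with Th17 cells and less with Rorgt gdT cells. A stretch further on, chr1:83156501-83157500 and 2.24 kb from Daw1, a gene for an assembly factor of cilia, held 182 and 2 fragments in cecum and 54 and 8 in tumor (log2 ratio 3.43). It was high in tumor IL-10+ Treg cells (19.8 FPM) and low in Th17 (3.85) and Rorgt gdT cells (4.23).

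The 5 stretches with the highest tumor level in a type 17 label, picked for that level, were Krt28, Slc22a15, Dennd4c, Iyd and Ifngr1 by nearest gene. The stretch chr11:99369501-99370500 in the span of Krt28, a keratin gene, held 156 and 14 Treg fragments in cecum and 85 and 26 in tumor (log2 ratio 2.67). Its tumor level was 31.2 FPM in IL-10+ Treg, 55.6 in Th17 and 70.6 in Rorgt gdT cells. At chr3:101881501-101882500 in Slc22a15, a transporter gene, 62 and 2 Treg fragments were counted in cecum and 22 and 4 in tumor (log2 ratio 2.85), with 8.06 FPM in IL-10+ Treg, 32.5 in Th17 and 54.1 in Rorgt gdT cells. In tumor Mucosal Th1 cells these stretches held 2.32 and 0 FPM. The region 35.5 kb from Dennd4c was also high there, since its 22.4 FPM in tumor IL-10+ Treg cells stood beside 42.7 in Th17, 54.6 in Rorgt gdT and 32.4 in Mucosal Th1 cells, and the region 93.4 kb from Ifngr1 held 11.4, 40.2, 27.3 and 27.8 FPM in the same order. Their tumor log2 ratios were 0.83 (61 and 72 Treg fragments) and 0.98 (31 and 32), both under 2-fold. More tumor labels stood above IL-10+ Treg cells in these regions. Near Dennd4c, Cytotoxic CD8, PD1+ CD8 and PD1+ CD4 cells held 36.5, 32.4 and 25.9 FPM. Near Ifngr1 they held 15.7, 21.3 and 24.9 FPM.

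A further group was open in IL-10+ Treg cells at more than 3 times the level of every other tumor label. Besides the Wwox and Daw1 stretches it included chr6:125252501-125253500, 15.4 kb from Cd27, the gene of a costimulatory receptor. This stretch held 163 and 7 Treg fragments in cecum and 58 and 26 in tumor (log2 ratio 2.13), and in the tumor 0 Th17 and 1 Rorgt gdT fragment. A region in the span of Pdpn, which encodes podoplanin, held 88 and 8 fragments in cecum and 38 and 19 in tumor (log2 ratio 1.94), with 2 Th17 and 7 Rorgt gdT fragments. A region 81.5 kb from 1700129C05Rik held 69 and 10 in cecum and 39 and 14 in tumor (log2 ratio 2.35), with 2 Th17 and 0 Rorgt gdT fragments. A count of 0 or 1 here does not separate a closed region from a level too low for this depth. The region in Msi2 (55 and 1 fragments in cecum, 31 and 3 in tumor, log2 ratio 3.54) also held 11.4 FPM in tumor IL-10+ Treg cells and at most 1.79 FPM, in PD1+ CD4 cells, elsewhere in the tumor. The stretch in Scfd2 (116 and 0, 41 and 6, log2 ratio 3.34) was at 15.03 FPM in tumor IL-10+ Treg and 1.28 in Th17 cells, but at 7.13 in Tfh-like cells, which in the cecum exceeded IL-10+ Treg cells (26.3 against 20.3 FPM).

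**Figure D5:**
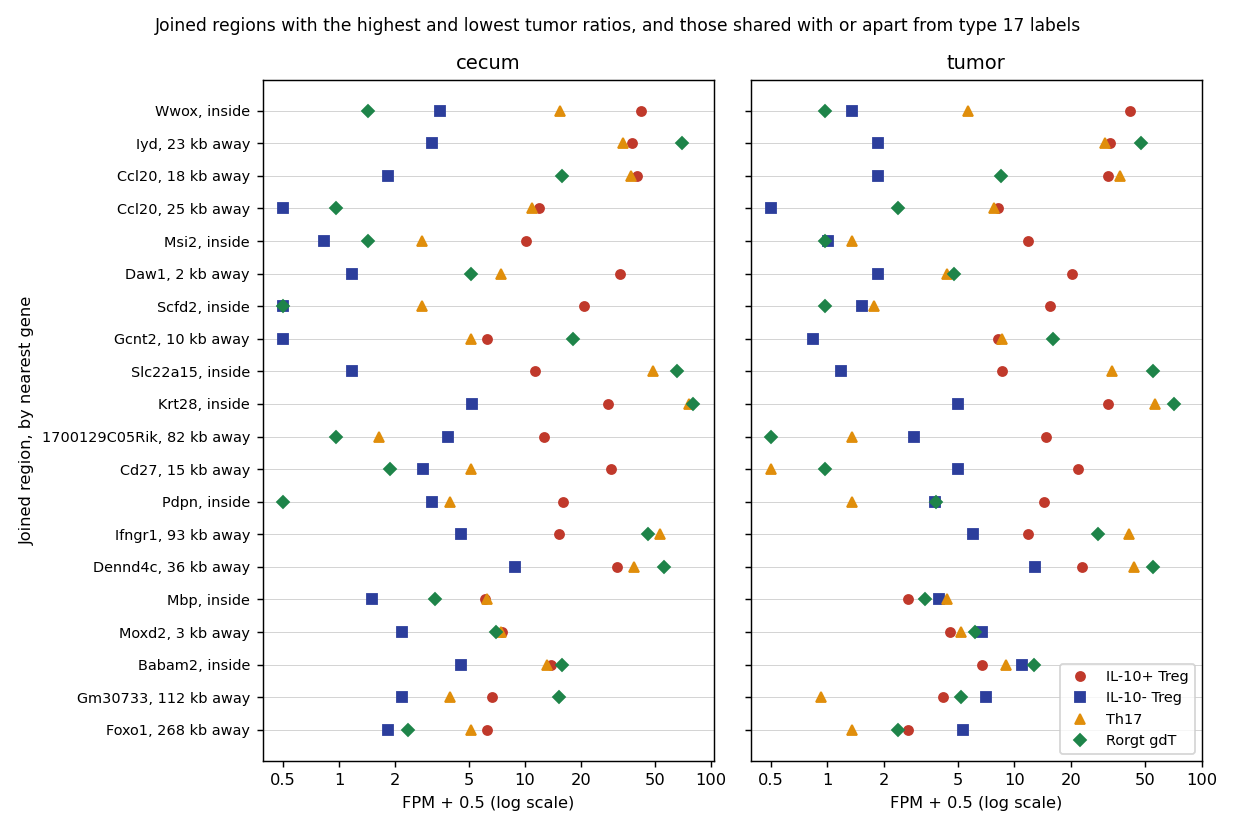
Level of 20 joined stretches (y axis, by nearest gene and distance) as FPM + 0.5 on a log scale (x axis) in IL-10+ Treg, IL-10- Treg, Th17 and Rorgt gdT cells of the cecum and the tumor, ordered by the tumor log2 ratio of the Treg labels. The stretch in Wwox is highest for this ratio and, in the tumor, low in both type 17 labels (14.9 FPM in cecum Th17 cells), that near Iyd is as high in the type 17 labels, and the bottom 5 have IL-10- above IL-10+ Treg in the tumor.

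Of 18 type 17 and gut Treg genes, 7 were the nearest gene of a region (among them Il17a, Il17f, Il23r, Il1r1, Ccl20 and Tmem176b), where 16 of the 18 had a distal region with 30 or more fragments. Of the 5558 coding genes with such a region, 9.41% were the nearest gene of a selected one, as were 2.53% of all 20665 coding genes on these chromosomes. Next to the 7 list genes lay 22 regions, of which 21 were 2-fold or more higher in tumor IL-10+ Treg cells (66.3% over all 888 regions). They made up 16.9% of the 130 distal regions with 30 or more fragments next to the list, against 4.00% over all such regions. Of the 22, Ccl20 had 8 and Il1r1 had 5. The share by gene grows with the number of distal regions per gene. All gene lists were fixed with earlier results of these data known, so their counts are no independent evidence. Il17a and Il17f, the cytokine genes of Th17 cells, had a region 4.90 kb away (33 and 1 Treg fragments in cecum, 15 and 3 in tumor, log2 ratio 2.56) and a stretch 16.6 kb away (127 and 5, 53 and 18, log2 ratio 2.47). The tumor levels of the former were 5.50 FPM in IL-10+ Treg, 17.1 in Th17 and 17.9 in Rorgt gdT cells. Within Il23r, a receptor gene of type 17 cells, a region held 45 and 3 fragments in cecum and 10 and 6 in tumor (log2 ratio 1.44, from counts 0.22 to 3.57), with 3.67 FPM in IL-10+ Treg, 20.1 in Th17 and 26.3 in Rorgt gdT cells. The Tmem176b region, 1.05 kb from a gene for a membrane channel, had a tumor log2 ratio of 1.68. No region was nearest to Rora, Maf, Ahr, Batf, Irf4, Stat3, Hif1a, Il22, Ccr6, Cxcr6 or Tmem176a, of which Cxcr6 and Tmem176a had no distal region with 30 or more fragments.

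Il1r1, the receptor gene for interleukin-1, had 5 regions within its span, all of its distal regions with 30 or more cecum fragments. Together they held 186 and 13 Treg fragments in cecum and 98 and 49 in tumor, and their tumor log2 ratios ran from 1.33 to 2.95. Within 1 kb of the ends of the gene the picture was another, with 6 and 3 fragments in cecum and 2 and 23 in tumor (log2 ratio -1.86). The internal regions, which include the start whose sequence is printed above, and the outer ends of this gene thus differed in opposite directions between the tumor Treg populations. The internal region with the most fragments and the lowest tumor ratio (1.33), chr1:40271001-40271500, held 14.7 FPM in tumor IL-10+ Treg, 5.51 in IL-10- Treg, 29.1 in Th17 and 22.1 in Rorgt gdT cells.

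Of 16 effector Treg genes, 14 had a distal region with 30 or more fragments and 9 were nearest to a selected one (9.41% over all genes with such a region). These 14 genes had 198 such regions, where all 5558 genes had 22184, so the shares by gene have unlike bases. Next to the 9 genes lay 21 regions, 10.6% of the distal regions next to the list against 4.00% over all. Of the 21, 15 were 2-fold or more higher in tumor IL-10+ Treg cells, a share close to the 66.3% over all 888 regions. Il10 had 4 regions on one side, in pairs with centers 19.1 to 24.1 kb from the gene. The outer stretch, chr1:130995501-130996500, held 235 and 21 Treg fragments in cecum and 98 and 38 in tumor (log2 ratio 2.37, from counts 1.90 to 3.04), with 35.9 FPM in tumor IL-10+ Treg, 6.55 in IL-10- Treg, 20.1 in Th17 and 10.4 in Rorgt gdT cells. Ctla4, an inhibitory receptor gene, had 8 regions with centers between 5.42 and 45.8 kb from its ends. Its longest stretch, chr1:60863001-60865000, held 164 and 21 fragments in cecum and 80 and 41 in tumor (log2 ratio 1.98), with 29.3 FPM in tumor IL-10+ Treg, 7.06 in IL-10- Treg, 5.56 in Th17 and 1.88 in Rorgt gdT cells. At the Il10 stretch, tumor Tfh-like cells (17.8 FPM) came near Th17 cells, and Mucosal Th1 (10.8) and PD1+ CD4 cells (10.7) near Rorgt gdT cells. At the Ctla4 stretch, cecum Th17 cells held 13.8 FPM (12 fragments), above the 6.998 FPM of cecum IL-10- Treg cells. A region 28.4 kb from Prdm1, which encodes the transcription factor Blimp-1, held 44 and 2 fragments in cecum and 23 and 6 in tumor (log2 ratio 2.54) and 16.0 FPM in Rorgt gdT cells, against 8.43 in IL-10+ Treg cells. Regions nearest to Zeb2, Il12rb1, Ccr1 and Ccr2 had tumor log2 ratios of 1.74, 1.36, 0.99 and 0.59, and the region in Lag3 one of -0.04. Icos, Tigit, Havcr2, Gzmb, Fgl2, Ebi3 and Itgae were nearest to none.

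The study named some of the next genes from these samples, so that their count is no independent evidence of a direction. Of 12 genes named for IL-10- Treg cells or known from Helios-expressing tissue Treg cells, 4 were nearest to a region, with 5 regions (7.25% of those next to the list against 4.00% over all) and 3 of them 2-fold or more higher in tumor IL-10+ Treg cells, near the 66.3% over all 888 regions. Nfil3, a transcription factor gene, had the strongest (88 and 8 fragments in cecum, 39 and 19 in tumor, log2 ratio 1.97). Regions in Gata3 and Il1rl1 and near Il2ra had tumor log2 ratios of 1.05, 0.98 and 0.67. Each of these held 30 or 31 cecum IL-10+ Treg fragments, at the limit of the rule. Ikzf2 had 8 distal regions with 30 or more fragments and none was selected. Of 10 genes of naive and circulating T cells, 3 were nearest to a region (Ccr7, Bach2 and Foxp1), with 13 regions (9.77% of those next to the list) of which 11 were 2-fold or more higher in the tumor, and 11 of the 13 lay in Foxp1.

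The 888 regions had 523 nearest genes, 341 of them with 1 region and 22 with 5 or more, and these 22 accounted for 151 regions. The nearest genes with the most regions were Wwox, with 19 of its 62 distal regions with 30 or more fragments (17 of the 19 inside its span), and Foxp1, which encodes a forkhead factor of quiescent T cells, with 11 of 36. Cradd, an adaptor gene of cell death signaling, had 9 of 24, and Ccl20, Ctla4 and Itm2b, which encodes a membrane protein, had 8 of 8, 8 of 37 and 8 of 13, where 4.00% of all distal regions were selected. The Wwox regions extended over 437 kb from chr8:114973501-115410500 and ended 292.8 kb before Maf, the gene of c-Maf and the next coding gene on that side. They held 1088 and 90 Treg fragments in cecum and 435 and 156 in tumor, and 15 of the 19 were 2-fold or more higher in tumor IL-10+ Treg cells. The Foxp1 regions (10 of 11), Cradd regions (8 of 9), Itm2b regions (8 of 8) and Ctla4 regions (7 of 8) had a like pattern, with median tumor log2 ratios of 1.61, 1.78, 1.85 and 1.98. The next coding genes beside them were Eif4e3 after Foxp1, Socs2 at 82.9 kb after Cradd, Icos at 38.8 kb after Ctla4, and Rb1 and Med4 on either side of Itm2b.

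The ends of the nearest genes, which the rule did not select for a difference, were measured in the same way. A fragment with 1 end in a selected region and 1 near a gene end counted in both. The 2 measures are therefore not fully separate where a region lies close by, as at Tmem176b (1.05 kb from the gene). Within 1 kb of the gene ends, the median tumor log2 ratio was 0.14 (0.11 to 0.18) over 435 nearest genes with 20 or more fragments, beside 0.03 over 12160 protein-coding genes. A 2-fold or higher ratio was found in 19 of the 435 (4.37%), where 0.724% of the 12160 were. For the 68 nearest genes of 3 or more regions with 20 or more fragments the median was 0.19 (0.12 to 0.26). The tumor gene-end log2 ratios of Il17a (23 and 3 fragments), Il10 (192 and 72), Il23r (48 and 20), Ccl20 (16 and 6) and Tmem176b (18 and 8) were 3.13, 2.46, 2.198, 2.05 and 1.92. Those of Ctla4 (113 and 186) and Prdm1 (62 and 115) were 0.37 and 0.19. Il12rb1 (34 and 93) had -0.35 and Ccr2 (25 and 16) had 1.57, and Ccr1, Lag3 and Zeb2 had 0.66, 0.29 and 0.28. Il17f had 0.43 from 3 and 4 tumor fragments, too few to place, beside 38 and 1 in cecum (log2 ratio 3.10). The first group of genes and Ccr2 were thus 2-fold or more higher in tumor IL-10+ Treg cells at their gene ends as well. For Ctla4, Prdm1, Il12rb1, Ccr1, Lag3 and Zeb2 the ratio stayed under 2-fold in either direction.

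A minority of regions was not higher in tumor IL-10+ Treg cells. The lowest with 20 or more tumor fragments lay 268.4 kb from Foxo1 (33 and 4 Treg fragments in cecum, 6 and 28 in tumor), with a log2 ratio of -0.98 and an interval from counts of -2.70 to 0.17. Next came regions 112.4 kb from Gm30733 (35 and 5, 10 and 38, log2 ratio -0.76), in Babam2 (76 and 12, 17 and 61, -0.71), 3.01 kb from Moxd2 (40 and 5, 11 and 36, -0.56) and in Mbp (32 and 3, 6 and 20, -0.55). The interval of every one of these 5 included 0. The region beside Gm30733 was high in tumor PD1+ CD4 (36.0 FPM) and Innate-like T#1 cells (33.5 FPM), and that in Babam2 was highest in Th2 (25.1 FPM) and CD8aa cells (17.9 FPM).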

How the data were processed

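T cell nuclei of 1 cecum and 1 tumor sample were profiled for open chromatin. Per the submitters' processing notes, Cell Ranger ARC 2.0.0 aligned the reads to mm10. The authors deposited fragment files, in which every line gives a fragment, its barcode and a count of its read pairs, and a label per barcode. The authors kept cells that passed limits on RNA and on ATAC (fragments per cell and enrichment at gene starts) and set the clusters on RNA, which was not analysed here. A fragment was counted once in a region that held either of its ends, irrespective of its read pair count. Counts were summed per label and divided by the label's fragments on chromosomes 1-19, X and Y. Exact conditional Poisson (ratios), Clopper-Pearson (shares) and order-statistic (medians) intervals were at 95%. Gene spans came from RefSeq GRCm38.p6, without exons. Sequence came only from RefSeq promoter windows, and no whole genome sequence was used. Named stretches were the 8 with the highest smaller ratio of both libraries, the 5 lowest in tumor (both with 20 or more tumor fragments), up to 5 highest in type 17 labels, up to 5 over 3 times every other label, the strongest per list gene, and the 5 nearest genes with most regions, ties included. Regions, lists and rules were chosen with earlier results of these data known. Python 3.11.15, numpy 2.4.6, pandas 2.3.3, scipy 1.17.1 and numba 0.67.0 were used, and the counting and intervals were tested on simulated data. Some genes counted in the lists are not reported here by name.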

Additional observations from a re-analysis of the deposited data

Results flagged for a closer look

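Some regions, chosen as higher in cecum IL-10+ Treg cells, had tumor ratios below 0. Their tumor log2 ratios were -0.98 near Foxo1 (1.78 in the cecum), -0.76 near Gm30733 (1.61), -0.71 in Babam2 (1.62), -0.56 near Moxd2 (1.79), -0.55 in Mbp (2.03) and -0.042 in Lag3 (1.65). Every interval from counts included 0 (for Foxo1 -2.70 to 0.17, for Lag3 -1.29 to 1.09), so a lower tumor level is not shown, and the first 5 are the lowest of the regions with 20 or more tumor fragments. The difference between the tissues was not tested, since each tissue had 1 library.

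The gene ends of Il1r1 had a tumor log2 ratio of -1.86, against 0.05 in the cecum. Tumor cells gave 2 IL-10+ and 23 IL-10- Treg fragments there, and cecum cells 6 and 3. That difference was not tested either.

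Barcodes without a label and with 100 or more fragments, which no comparison used, had a median level in the regions of 2.59 (cecum library) and 2.66 FPM (tumor library). Unlabelled barcodes of under 100 fragments had 1.94 and 1.78 FPM.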

How the results depend on the processing

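Of 68 values under alternative settings, 41 lay inside the interval of the reported value and 27 outside it. None of the 48 medians of log2 ratios among them changed sign. The share of regions 2-fold or more higher in tumor IL-10+ Treg cells (66.3%) was 70.9% with 0.1 FPM added and 51.2% with 2 FPM, 70.6% when cells deeper than 3 times their library's median were left out, and 63.0% over regions with 20 or more tumor fragments. With regions chosen again it was 70.1% at 50 or more fragments (365 regions), 44.6% at 2-fold (2373) and 76.0% at 4-fold (458). The median log2 ratio (1.36) was 1.50, 1.01, 1.27, 1.48, 0.91 and 1.68 with 0.1 FPM, 2 FPM, 20 tumor fragments, 50 fragments, 2-fold and 4-fold, and 1.46 as a mean over cells. The Th17 median (0.76) was 0.90 with 0.1 FPM, 0.54 with 2 FPM, 0.68 with 20 tumor fragments, 0.51 at 2-fold and 0.896 at 4-fold. The Rorgt gdT median (0.73) was 0.52 with 2 FPM, 0.42 at 2-fold and 0.91 at 4-fold. Scaling to fragments near gene ends gave 0.10 for the gene-end median (0.14). The share of regions that touch another (35.8%) was 30.3% with regions shifted by 250 bp, 31.0% at 50 fragments, 30.3% at 4-fold and 19.4% when a fragment counted by its middle. The cause was not tested, beyond the choice of fewer or more regions that some settings make by construction. No paired analysis was possible because each tissue had 1 library and no test was run. With a median of 19 and 14 tumor fragments per region in the Treg labels, single ratios are wide, and libraries and tissue cannot be told apart.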
